A study of Saccharomyces cerevisiae with 59 samples.

Results

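Ribosome biogenesis genes encode the factors that process ribosomal RNA and assemble it with ribosomal proteins in the nucleolus. The members described here were the genes whose names consist of UTP, NOP, RRP, NOC, NSA, RPF, ENP or ESF followed by a number. This rule used no measured value, and it found 62 members among the 5590 genes of the tables, on 14 of the 16 chromosomes. By their known roles, 31 members were factors of the small subunit precursor (6 of the UTP-A subcomplex, 4 of UTP-B, 2 of UTP-C and 19 others), 20 were factors of the large subunit precursor, 4 were core proteins of the small nucleolar ribonucleoproteins (snoRNPs), and 7 were subunits of the RNA exosome. A name rule is not a complete list of the pathway, and some factors act on both subunits, such as RRP5.

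MATa cells of the budding yeast strain W303, with the alleles ade2-1, can1-100, his3-11,15 and leu2-3,112 and with URA3::BrdU-Inc and BAR1::TRP, were released from an α-factor arrest and followed through 2 cell cycles, at aligned time points from 10 to 140 min in steps of 10 min. The released cells were compared with cells sampled just before release, which had been held in G1 for 2 h with 50 ng/mL α-factor, the mating pheromone, and which form the 0 min time point. All cells carried the same genotype and grew in rich medium (YPD), and the arrested cells were washed and moved to fresh YPD at release, so that the end of the pheromone signal and the new medium cannot be told apart. Total RNA was sequenced in 29 libraries and MNase-digested chromatin in 30, from 2 biological replicates. The deposited tables hold 1 merged value per gene and aligned time point, with no standard deviation and no test over replicates, so each difference below is a difference between merged values, and the RNA value at 110 min rests on 1 library. The alignment allows for a slower recovery of Replicate 1. In Replicate 2 the aligned time is the time since release, whereas in Replicate 1 the library of each aligned point after the arrest had been taken 10 min later than that point, and its own 10 min sample was left out by the authors. The aligned 10 min point, used below for the change at release, thus merges Replicate 1 at 20 min and Replicate 2 at 10 min after release.

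In yeast, RNA polymerase I transcribes the large ribosomal RNA precursor, and the small subunit processome, of which the UTP proteins are parts, forms on it while it is made. Box C/D snoRNPs guide the ribose methylation and box H/ACA snoRNPs the pseudouridylation of the precursor, the exosome trims and degrades RNA from its 3′ end, and the large subunit factors lead the other branch to the cytoplasm. Genes of this pathway are known as a regulon that follows growth signals. Many of their promoters carry the PAC motif, which is bound by the repressors Dot6 and Tod6, and the RRPE motif, which is bound by Stb3.

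Promoter stretches of members with large and with small RNA changes at release are shown first. These motifs were more frequent before the members than over all genes, as counted below. The sequences were read from the R64 reference genome, which is not the W303 strain itself, on the strand of the gene and up to the start site given in the tables, to within 1 base. Capitals mark the PAC core (GATGAG, or CTCATC on the other strand) and the RRPE core (AAAATTTT). The 3 members with the largest change at release among those with both cores were ENP2 (chrVII:781563-781712, plus strand), a small subunit factor, RPF1 (chrVIII:281340-281468, plus strand, cut short at the transcript of RTC3), a large subunit factor, and RRP36 (chrXV:851862-852011, minus strand), a small subunit factor.
ENP2: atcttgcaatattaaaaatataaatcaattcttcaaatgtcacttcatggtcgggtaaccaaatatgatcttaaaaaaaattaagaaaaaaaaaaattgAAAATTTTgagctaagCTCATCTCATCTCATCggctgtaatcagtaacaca
RPF1: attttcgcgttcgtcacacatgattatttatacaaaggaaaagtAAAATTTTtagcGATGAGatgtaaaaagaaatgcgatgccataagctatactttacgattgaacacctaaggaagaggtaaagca
RRP36: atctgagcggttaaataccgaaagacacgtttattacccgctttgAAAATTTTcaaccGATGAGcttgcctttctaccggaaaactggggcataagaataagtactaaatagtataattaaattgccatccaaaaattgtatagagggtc
In each of them the RRPE core lay upstream of a PAC core, and in ENP2 the PAC core stood 3 times in a row on the opposite strand, starting 35, 30 and 25 bases before the start site. The 3 members with the smallest change at release were the exosome subunits RRP43 (chrIII:193029-193178, minus strand), RRP46 (chrVII:676385-676534, minus strand) and RRP45 (chrIV:1020468-1020617, plus strand).
RRP43: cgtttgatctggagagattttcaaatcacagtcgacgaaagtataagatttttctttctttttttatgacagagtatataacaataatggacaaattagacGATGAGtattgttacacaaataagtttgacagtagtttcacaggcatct
RRP46: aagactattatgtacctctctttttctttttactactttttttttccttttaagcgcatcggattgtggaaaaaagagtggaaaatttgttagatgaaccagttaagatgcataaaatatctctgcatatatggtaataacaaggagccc
RRP45: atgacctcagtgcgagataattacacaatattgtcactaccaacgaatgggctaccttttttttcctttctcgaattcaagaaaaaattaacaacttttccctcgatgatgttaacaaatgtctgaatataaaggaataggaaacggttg
RRP43 had a PAC core and no RRPE core in this stretch, and those of RRP46 and RRP45 held neither. The members with large changes were chosen for holding both cores, and those with small changes without regard to motifs. The stretches are thus examples and not a comparison of motifs between large and small changes. NOP4, whose change (1.88) was larger than that of RRP36 (1.85), had no RRPE core and is not shown.

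Within 300 bases before the start site, on either strand, the PAC core was found in 51 of the 62 members (82.3%) and in 20.2% of all 5590 genes. The longer form GCGATGAG, which contains the core, was found in 26 members (41.9%) and in 4.53% of all genes. The RRPE core was found in 40 members (64.5%) and in 10.7% of all genes, and the related letters GAAAAATTT, which can overlap the core, in 33 members (53.2%) and in 7.53% of all genes. Both cores were present in 35 members (56.5%) and in 5.06% of all genes, and neither in 6 members (9.68%) and in 74.2% of all genes. The match nearest to the start site lay at a median of 66 bases before it for the PAC core (51 members) and 91 bases for the RRPE core (40 members). Among the 7 exosome subunits, 3 had the PAC core, 1 had the RRPE core and none had both. A match of letters is not a bound site.

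**Figure D1:**
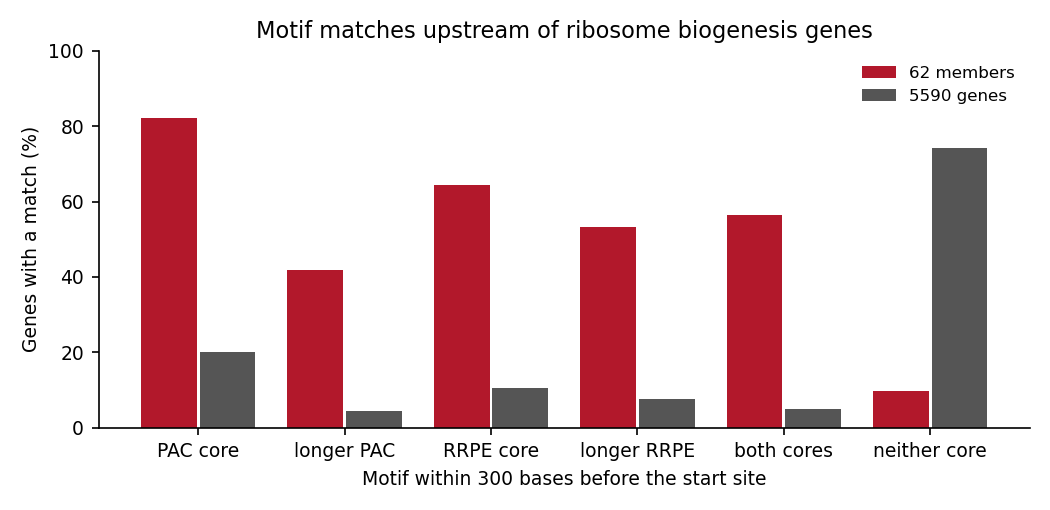
Share of genes (%) with at least 1 match within 300 bases before the start site, for the 62 members (red) and all 5590 genes (grey). The PAC core was found in 82.3% of the members and 20.2% of all genes, and neither core was found in 9.68% of the members and 74.2% of all genes.

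The RNA values, which the authors name TPM, were treated as a score here. By that name they scale reads by gene length and by library and are relative to the other RNA of the same time point. How they were computed is not given in the sources used here. Averaged over the time points, the RNA value of the members ran from 39.8 in NOP8, a large subunit factor, to 1595 in NOP10, a small protein of the box H/ACA snoRNPs. The median over members of this mean was 107.5, against 42.6 over all genes, and 61 of the 62 members lay above the median gene. The next lowest was RRP36 with 50.7, and the next highest was NOP1 with 699. NOP1 is fibrillarin, the methyltransferase of the box C/D snoRNPs. No member was listed at 0 at any time point.

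At release, the RNA of the ribosome biogenesis genes rose together. Between the arrest and the aligned 10 min point (20 min after release in Replicate 1 and 10 min in Replicate 2), 43 of the 62 members reached an RNA value at least 2-fold higher, where 9.62% of all genes did so, and none was at least 2-fold lower, where 4.36% of all genes were. The median change of log2(value + 1) was 1.30 (2.46-fold), against 0.04 over all genes. Relative to the median of all genes the change was 1.25. Scaling each time point by its upper quartile, which shifts the median of all genes by -0.12, gave 1.24. The median RNA value of the members was 131 at 10 min and 54.7 at the arrest. At a threshold of 3-fold, 13 members were counted in place of 43, and 4.04% of all genes. At 1.5-fold, 58 members were counted, and 17.2% of all genes.

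ENP2 had the largest change. Its RNA value was 25.4 at the arrest and then 105, 120.5, 124, 119.5, 112, 97.5, 103, 87.7, 91.3, 93.4, 83.0, 76.7, 61.4 and 61.2 from 10 to 140 min. Every time point after release lay above the arrest, the highest at 30 min. Its change at 10 min was 2.01 on the log2 scale. NOP4, an RNA-binding factor of the large subunit, had a value of 177 at 10 min, against 47.2 at the arrest (log2 change 1.88). RPF1 had 130.4 at 10 min and 34.7 at the arrest (1.88). At the other end stood RRP43, a subunit of the exosome ring, whose values were 88.5 at the arrest and then 103, 112, 117, 108, 104, 94.5, 101, 90.2, 92.8, 92.4, 87.3, 88.8, 82.7 and 84.9. Its change at 10 min was 0.22, and at 110, 130 and 140 min it lay below the arrest. RRP46 changed by 0.51, with 83.1 at 10 min and 57.9 at the arrest, and RRP45 by 0.53, with 74.4 at 10 min and 51.1 at the arrest. Both belong to the same ring as RRP43.

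**Figure D2:**
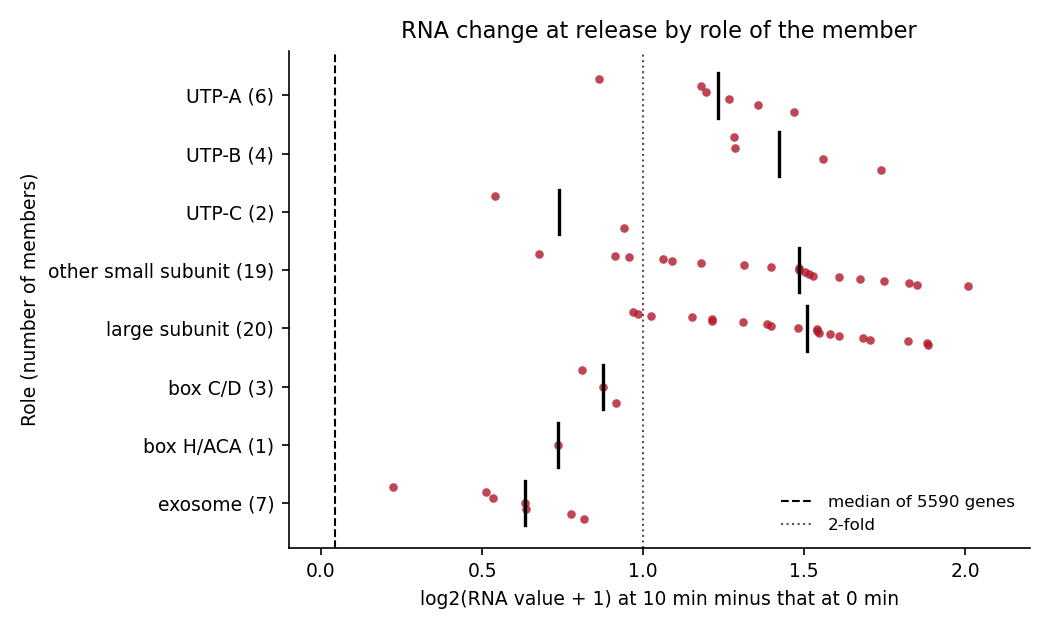
Change of log2(RNA value + 1) at 10 min minus that at 0 min (x axis) for each member, by role (y axis, number of members in parentheses); black bars are the medians, and dashed and dotted lines mark the median of 5590 genes and a 2-fold change. All 7 exosome subunits lie below the 2-fold line, and 18 of the 20 large subunit factors lie above it.

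Among the roles, the large subunit factors had a median change of 1.51, and 18 of 20 passed 2-fold. Their range ran from 0.97 in RRP15 to 1.88 in NOP4. In the UTP-A subcomplex, which binds the precursor first, 5 of 6 passed 2-fold. UTP4 was highest, with 136 at 10 min and 48.4 at the arrest (1.47), and UTP15 lowest, with 102 and 55.5 (0.86). In UTP-B all 4 passed, from UTP18 (98.5 at 10 min and 39.9 at the arrest, 1.28) to UTP21 (159.9 and 47.2, 1.74). Of the pair in UTP-C, UTP22 had 134 at 10 min and 69.6 at the arrest (0.94), and RRP7 had 153 and 105 (0.54). The other small subunit factors had a median of 1.48, with 16 of 19 past 2-fold. The lowest of these was RRP3, a DEAD-box helicase, with 109.9 at 10 min and 68.4 at the arrest (0.68), and the highest was ENP2.

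The members counted above as core proteins of the snoRNPs, whose RNA values were high, changed by less than 2-fold by 10 min. They went on rising after it. NOP1 had an RNA value of 332 at the arrest and then 627, 760.3, 840.0, 877, 877, 784, 742, 712, 729, 743, 647, 663, 588 and 553. Its change at 10 min was 0.92, and its highest values stood at 40 and 50 min. NOP56 had 529.7 at 10 min and 288 at the arrest (0.88), with its highest value of 705 at 50 min. NOP58 had 502 at 10 min and 286 at the arrest (0.81), with its highest value of 629.8 at 30 min. These 2 proteins form the scaffold of the box C/D particle together. For the 3 box C/D genes, the median log2 difference to the arrest was 0.88 at 10 min, 1.11 at 20 min and 1.29 at 50 min. NOP10 had 1527 at 10 min, against 917 at the arrest (0.73), and its highest value of 2330.4 fell at 70 min.

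The exosome, which also acts on many RNAs outside this pathway, was the group with the smallest changes. None of its 7 subunits passed 2-fold, and the median change was 0.63. RRP40 was the highest, with 91.4 at 10 min and 51.4 at the arrest (0.82). RRP6, its nuclear exonuclease, had 90.8 at 10 min and 58.0 at the arrest (0.64). Without the exosome subunits, the median over the other 55 members was 1.38. Whether the roles differ was not tested, since genes are not replicates.

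Other genes of the pathway, from lists chosen by role, were counted in the same way. Of 30 other small subunit factors, 26 rose at least 2-fold (median 1.41), from SNU13 (969.9 at 10 min and 605 at the arrest, 0.68) to FAF1 (74.4 and 10.6, 2.71). Of 51 other large subunit factors, 43 did so (median 1.51), from NOG2 (698 at 10 min and 563 at the arrest, 0.31) to ALB1 (347 and 67.4, 2.35). In a list of 6 further snoRNP and nucleolar proteins 4 passed 2-fold, with CBF5, the pseudouridine synthase, at 461 at 10 min and 269 at the arrest (0.78) and NSR1 at 537 and 140.5 (1.93). In the same list, GAR1 had 286 at 10 min and 137 at the arrest (1.06), and NHP2 had 603 and 344 (0.81). Of the 7 other exosome subunits and cofactors 3 passed, from SKI6 (0.53) to the helicase MTR4 (1.67). Of 11 subunits and factors of RNA polymerase I, 7 passed (median 1.21), the highest being RPA43 (1.34), while RRN11 had 59.7 at 10 min and 59.8 at the arrest. Of 13 subunits of RNA polymerase III, 7 passed (median 1.03), from RET1 (0.47) to RPC25 (1.35).

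Of 10 genes in a list of growth and ribosome regulators, only TOD6 passed 2-fold, with 82.3 at 10 min and 19.7 at the arrest (2.01). DOT6, whose product binds the same motif, had 21.4 at 10 min and 16.0 at the arrest (0.40). STB3 had 32.3 at 10 min and 37.8 at the arrest (-0.22), and the activator SFP1 had 59.0 at 10 min and 59.9 at the arrest (-0.02). Next after TOD6 in this list came FHL1, with 26.7 at 10 min and 13.3 at the arrest (0.95), and IFH1, with 52.4 and 28.1 (0.87). The 130 cytosolic ribosomal protein genes followed another course. At 10 min their median difference to the arrest was 0.04 (-0.10 when time points were scaled by their upper quartiles), and 1 of 130 passed 2-fold. It was 0.17 at 20 min, 0.38 at 30 min and 0.64 at 50 min, with the highest median, 0.75, at 70 min. None of the 42 mitochondrial ribosomal protein genes passed 2-fold at 10 min (median 0.09).

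**Figure D3:**
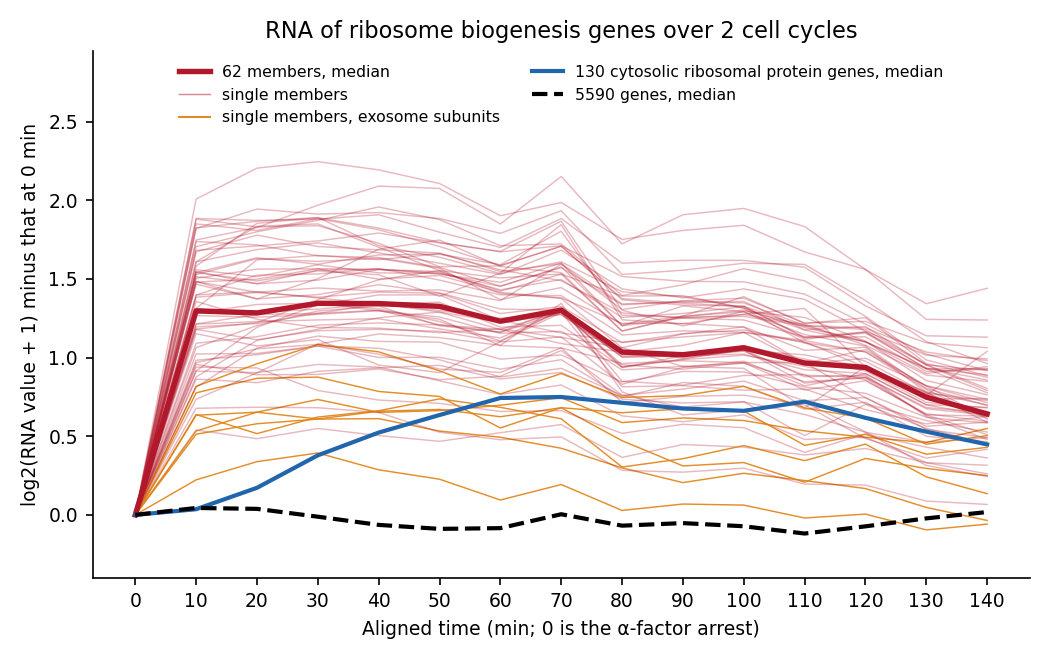
Difference of log2(RNA value + 1) to the 0 min time point (y axis) against aligned time in min (x axis), for each of the 62 members (thin lines, exosome subunits in orange), their median (thick red), 130 cytosolic ribosomal protein genes (blue, median) and 5590 genes (dashed, median). The median of the members was 1.30 at 10 min, 1.34 at 30 min and 0.64 at 140 min, and that of the ribosomal protein genes was highest at 70 min.

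After release, the RNA of the members stayed high through the first cycle and then fell. The median RNA value over members was 54.7 at the arrest, 131, 131, 132, 129, 121 and 116 from 10 to 60 min, 123 at 70 min, 106, 105, 107, 96.4, 98.5 and 85.5 from 80 to 130 min, and 83.7 at 140 min. In 60 of the 62 members the arrest was the lowest of all time points, as it was in 29.2% of all genes. The exceptions were RRP43 (lowest at 130 min) and RRP46 (lowest at 140 min). The highest value fell at 30 min in 18 members, at 70 min in 14, at 40 min in 13, at 50 min in 7, at 10 min in 6 and at 20 min in 4, and at no other time point in any member. Of all genes, 6.80% were highest at 30 min, 11.4% at 70 min, 4.31% at 40 min, 4.24% at 50 min, 15.5% at 10 min and 8.94% at 20 min, while 32.8% were highest at the arrest.

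The time points 20 and 30 min, and 80 and 90 min, were taken as S phase, and the RNA of the core histone genes, which are transcribed in S phase, was highest at 20 and 80 min. In neither cycle did the RNA of the members stand apart there. In the first cycle the median difference between 20 and 30 min and the time points 10, 50 and 60 min was 0.08, against 0.06 over all genes. In the second cycle, the median difference between 80 and 90 min and the time points 70, 110 and 120 min was -0.01 (all genes 0.00). Both signs turned under other scalings or time points. In the median course of the members, the largest step after 10 min lay between 70 and 80 min. At 80 min the RNA value was lower than at 70 min in all 62 members, with a median log2 difference of -0.25, and in 3801 of all 5590 genes, with a median of -0.09. Scaled by upper quartiles it was lower in 57 members (median -0.14) and in 46.6% of all genes (median 0.01). At 70 min it was higher than at 60 min in 50 members and in 72.1% of all genes, but when scaled so in 26 members and in 51.5% of all genes. NOP10 had 1578 at 80 min, against 2330.4 at 70 min.

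Late in the course the members declined. At 130 and 140 min, 34 of the 62 had RNA at least 1.5-fold lower than at 10 and 20 min, where 11.6% of all genes did so. The median log2 difference was -0.61, against -0.11 over all genes. Scaling by upper quartiles shifts the median of all genes by 0.20 here and gives a count of 11 members, and 5.49% of all genes. The difference between members and all genes was -0.50 as deposited and -0.48 so scaled. UTP23, a small subunit factor, had values of 69.5 and 64.5 at 130 and 140 min, against 140.4 and 145 at 10 and 20 min (log2 difference -1.08). None of the 7 exosome subunits and none of the 3 box C/D genes passed 1.5-fold. For the cytosolic ribosomal protein genes the same median difference was 0.38. At 140 min the members were still above the arrest, by a median of 0.64, against 0.02 over all genes.

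The time courses of the members were alike. The Pearson correlation of a member's log2 RNA over the 15 time points with the median profile of the other members had a median of 0.986, and 58 of the 62 reached 0.9, as did 6.08% of 5525 other genes. All of these profiles share the libraries and the step at the arrest. RRP12, NOP14 and NOC2 were closest to the others, and RRP43 (0.717), RRP46 (0.866) and RRP3 (0.868) least close. The 10 genes outside the name rule with the most similar profiles were NOG1 (0.998), PUF6, PNO1, ALB1, ARX1, RIX1, ECM16, HCA4, TRM2 and RLP24 (0.996). Of these, 8 were in the fixed lists of small and large subunit factors. HCA4 is another name of DBP4, a helicase of the small subunit, which stands in the list under the name that the tables do not use. The remaining one, TRM2, is a transfer RNA methyltransferase. Only 1 pair of members were neighbours on the chromosome: RRP15 (XVI, 818323 to 819075, plus strand) and NOC4 (XVI, 819765 to 821423, minus strand), whose transcripts run towards each other. RRP15 had 123 at 10 min and 62.4 at the arrest (1.96-fold on this scale), and NOC4 had 77.5 and 26.7 (2.84-fold).

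The median RNA change at release was larger in members with the promoter motif cores than in those without them. The median change was 1.47 in the 35 members with both cores and 1.02 in the other 27, and 0.79 in the 6 members with neither core. It was 1.38 in the 51 members with the PAC core and 0.86 in the 11 without it. For the longer RRPE form the difference was smaller, with 1.38 in the 33 members that had it and 1.21 in the other 29. These medians are descriptions of overlapping groups with no test. Single members departed from them. UTP30, with neither core but with the longer RRPE form, changed by 1.75, while NOP1, with both cores, changed by 0.92. Roles and motifs were not separated, and 3 of the 6 members with neither core were exosome subunits.

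In the gene bodies, the chromatin of the members also differed between 10 min and the arrest. In the paper, the nucleosome score is a cross-correlation of the local MNase-seq fragments with a model of a well-positioned nucleosome. The score reflects both the occupancy and the position of nucleosomes, which it does not separate. At 10 min it was lower than at the arrest in 53 of the 62 members, and in 59.6% of all genes, with a median log2 ratio of -0.17 (0.889-fold), against -0.03 over all genes. It was at least 1.2-fold lower in 12 members, where 4.62% of all genes were. The median log2 ratio to the arrest was -0.24 at 50 min and -0.12 at 90 min, and it was back at 0.02 at 130 min and 0.04 at 140 min. Over all genes it lay between -0.04 and 0.05 throughout. The labels of 1 of the 2 chromatin libraries at 10 min contradict each other on whether it was taken before or after release, and it was kept at 10 min by its stated time. With 50 and 60 min in place of 10 min, the median over members was -0.21. Between 130 and 140 min and the time points 10 and 20 min, the median difference of the members was 0.19, against 0.07 over all genes. The cytosolic ribosomal protein genes, whose RNA had hardly changed by 10 min, had a lower nucleosome score than the arrest by then as well (median -0.22, 49 of 130 at least 1.2-fold lower).

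NOP1 had the largest fall. Its nucleosome score was 0.0332 at the arrest and then 0.0249, 0.0236, 0.0208, 0.0216, 0.0213, 0.0217, 0.0219, 0.0227, 0.0230, 0.0213, 0.0246, 0.0255, 0.0296 and 0.0264. The arrest was the highest of these, and its log2 ratio at 10 min was -0.41. UTP6, of the UTP-B subcomplex, had 0.0606 at 10 min, against 0.0789 at the arrest (-0.38). UTP11 and RRP3, both small subunit factors, went the other way. UTP11 had 0.0265 at 10 min and 0.0215 at the arrest (0.30), although its RNA value was 116 at 10 min and 37.5 at the arrest. RRP3 had 0.0470 at 10 min and 0.0412 at the arrest (0.19).

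**Figure D4:**
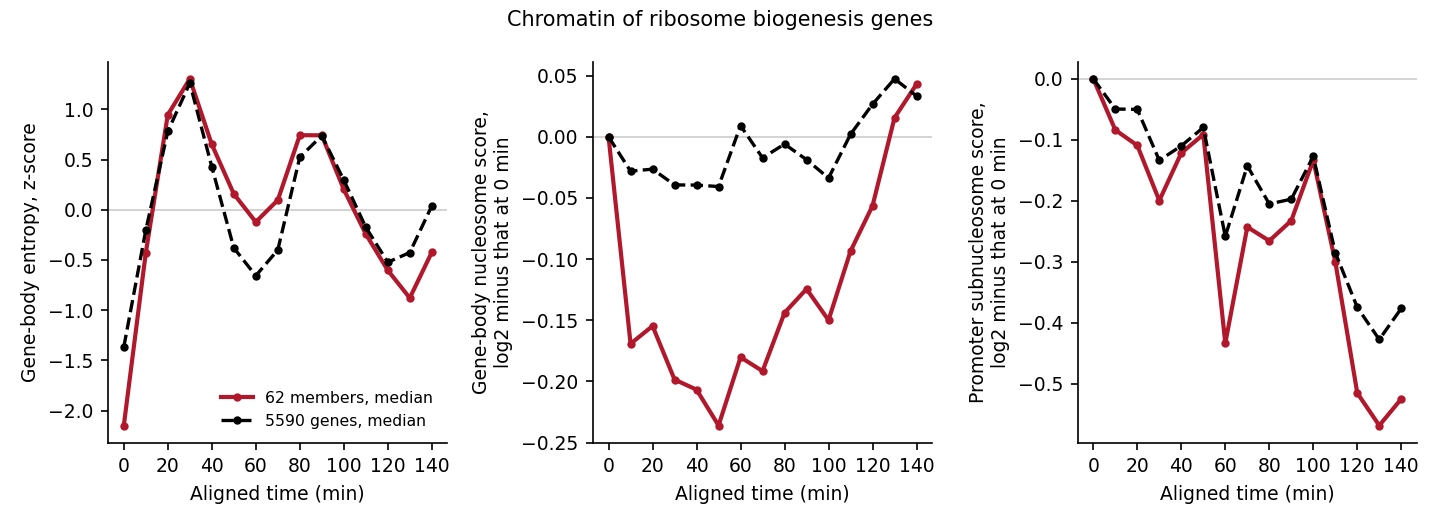
Median over the 62 members (red) and over 5590 genes (black, dashed) of the gene-body entropy z-score, of the log2 gene-body nucleosome score relative to 0 min and of the log2 promoter subnucleosome score relative to 0 min (y axes), against aligned time in min (x axes). The nucleosome score of the members was lowest at 50 min (-0.24) and back at 0.04 at 140 min, and the entropy of both groups was highest at 30 min.

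Entropy here is the Shannon entropy of that score along the gene body, and it is high where nucleosomes are less regularly placed. At 10 min it was higher than at the arrest in 60 of the 62 members, and in 78.5% of all genes. The median difference was 0.10, against 0.04 over all genes. The exceptions were UTP30 (-0.05) and RRP43 (-0.01). The arrest was the lowest of the time points in 56 members, and in 45.0% of all genes. NOP1 had the largest difference, with 5.09 at 10 min and 4.78 at the arrest (0.31). At 50 and 60 min, between the S phases, the median difference to the arrest was 0.11 in the members and 0.03 over all genes, and 61 of the 62 members lay above the arrest, as did 66.9% of all genes.

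The S phase rise of entropy, which most genes share, was present in the members as well. Measured as a z-score of each gene over its 15 time points, entropy at 20 and 30 min was higher than at 0, 10, 50 and 60 min in all 62 members, and in 95.1% of all genes. The median rise was 1.68, against 1.63 over all genes. Without the arrest among the lower time points it was 1.08, against 1.42 over all genes. In the second cycle, 80 and 90 min lay above 70, 110, 120 and 130 min in 61 members, and in 91.6% of all genes (median 1.14, against 1.02). These shares were near those of all genes. Ranked by the smaller of both rises, UTP23 (1.74 in the first and 1.78 in the second cycle) and NOP14 (2.19 and 1.66), both of the small subunit, had the largest, and UTP22 (1.73 and -0.02) and NOP12 (1.69 and 0.14), a large subunit factor, the smallest. Of the 62 members, 12 lay within 5000 bases of an annotated replication origin, as did 1386 of all 5590 genes. In these the z-score at 30 min exceeded that at 20 min by a median of 0.12, and in the other 50 by 0.43, against -0.14 and 0.68 in all genes near to and far from origins.

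The promoter subnucleosome score, by its name a measure of protected fragments smaller than a nucleosome, is not described further in the sources used here. Its sum over genes differed between time points, with 157 at its highest and 119 at its lowest. Ratios are therefore relative to the median ratio of all genes. At 10 min the median over members was -0.03, and no member was at least 1.5-fold lower than at the arrest, as was 0.215% of all genes. One member, RRP6, was at least 1.5-fold higher (log2 ratio 0.71), as was 0.769% of all genes. Its level was low, with 0.00857 at 10 min and 0.00540 at the arrest. RRP14, a large subunit factor, was next, with 0.0193 at 10 min and 0.0155 at the arrest (0.37). NOP10 had 0.0508 at 10 min and 0.0645 at the arrest (-0.30), and RRP15 had 0.0392 and 0.0495 (-0.29). This relative ratio was below 0 in 34 of the 62 members, and in 50.0% of all genes by its construction.

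Within single genes, RNA and the chromatin of the gene body moved together over the 15 time points. With the median time course of all genes removed from both measures, the Pearson correlation of log2 RNA with the nucleosome score was negative in 58 of the 62 members (median -0.62), and in 67.2% of all genes (median -0.21). It was -0.93 in NOP1. The exceptions were UTP11 (0.54), UTP30 (0.46), RRP3 (0.06) and NOP8 (0.02). The correlation of RNA with entropy was positive in 59 members (median 0.52) and in 64.9% of all genes (median 0.18), and its median was 0.34 when the arrest was left out. With the promoter score it was positive in 35 members (median 0.06) and in 63.0% of all genes (median 0.15). The points of each correlation share the libraries of a time point, and neighbouring times are not independent.

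Across the members, in contrast, the size of the RNA change at release did not follow the size of the chromatin change. Spearman's rho between the RNA change and the log2 ratio of the nucleosome score was -0.11 over the 62 members, and -0.39 over all 5590 genes. With the change of entropy it was 0.07 over the members and 0.37 over all genes, and with the promoter ratio 0.02 and 0.22. The members span a narrower range of RNA changes than all genes do. UTP11 and NOP1 show the spread, the first with a log2 RNA change of 1.61 and a higher nucleosome score, the other with an RNA change of 0.92 and the largest fall of the score.

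**Figure D5:**
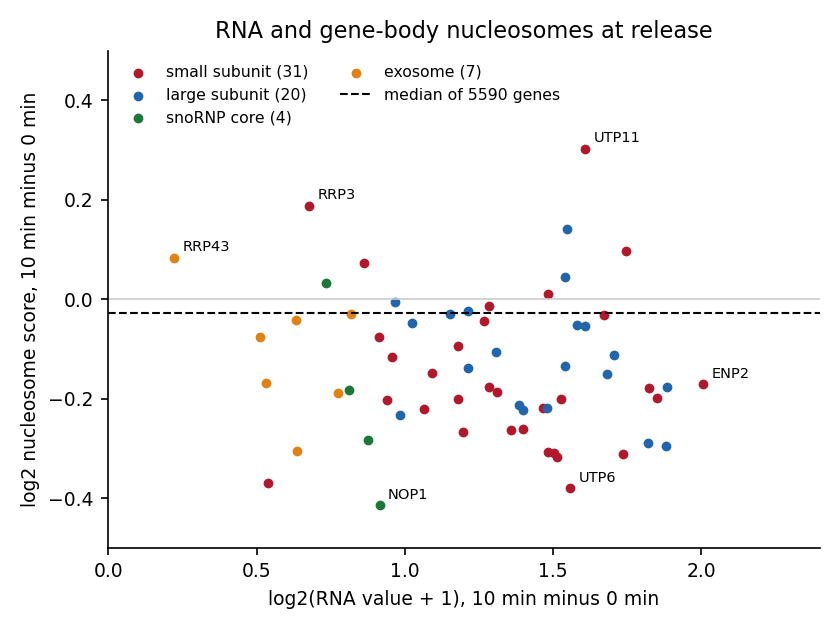
Log2 ratio of the gene-body nucleosome score, 10 min over 0 min (y axis), against the change of log2(RNA value + 1) over the same interval (x axis), with 1 point per member coloured by role; the dashed line is the median over 5590 genes (-0.03). Most points lie below 0 on the y axis, and the points form no slope (Spearman's rho -0.11).

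The cell cycle markers followed the time course as labelled: the genes of the pheromone response peaked at the arrest, the G1/S genes at 10 and 70 min, and the G2/M genes at 50 and 110 min. Beside the rise of the members at 10 min, the G1/S genes therefore rose as well, and the part of cell cycle entry in the change of the members was not tested. The RNA values of a time point summed to between 949828 and 1041385 over the genes listed. The highest sum is above what TPM in the strict sense can reach, so the values may be scaled otherwise than their name says. The RNA kit keeps the strand, but whether the counting used it is not given in the sources used here. Of the members, 21 overlap a transcript on the opposite strand, and 2 one on the same strand, so that their values may hold reads of the neighbour. Such overlaps were not counted over all genes, so whether they are more common in the members is not known.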

How the data were processed

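Yeast cells were sampled at 15 aligned time points, from the α-factor arrest to 140 min, in 59 libraries. The authors aligned the reads to the R64 genome with Bowtie 0.12.7 and, for MNase-seq, subsampled each replicate to equal fragment numbers and merged the replicates. Their methods correct the nucleosome score for DNA copy number, and whether the gene-body values carry this correction is not given. The 4 deposited tables hold values that were treated as a score here: RNA values named TPM, gene-body entropy, gene-body nucleosome score and promoter subnucleosome score. How RNA reads became TPM is not given in the sources used here, and single libraries, their depth and the precision of a value are not known from these tables.

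RNA was compared as log2(value + 1), with no filter on low values, so that a fold change understates the change of low genes. Called means past a fold, which was 2 for RNA at release, 1.5 for RNA late in the course and for promoters, and 1.2 for the nucleosome score. Gene coordinates matched the R64 annotation in 5579 of 5587 genes found in it, and the table starts count from 0 and were raised by 1. Motifs were searched in all 5590 windows of 300 bases before the start site. Members, lists and time sets were chosen with earlier results of these data known. The genes named were, by rule, the largest and smallest changes of each role and list, the extremes of each measure, NOP1, NOP56 and NOP58, members next to each other and the 10 most similar genes outside the rule. UTP30, DOT6, SFP1, GAR1, NHP2, FHL1 and IFH1 were named after their values were seen. Statistics were checked on simulated data with known answers. Python 3.11.15, numpy 2.4.6, pandas 2.3.3, scipy 1.17.1 and matplotlib 3.10.9 were used.

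The alternatives changed the pseudocount (0.1 and 5), the scaling, the fold (1.5 and 3), the minimum mean RNA (10), the members and the time points. A value was taken as unchanged where it kept its sign and lay within 1.5 times the value reported.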

Additional observations from a re-analysis of the deposited data

How the results depend on the processing

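No paired analysis was possible because each column is already a merge of both replicates, and no replicate could be left out. Of 72 alternatives, 51 kept the value within 1.5 times the one reported. Some of these could not differ. The minimum mean RNA kept all 62 members, so the median stayed the same. Leaving out the exosome subunits kept the counts at 43 at release and 34 late, since no exosome subunit passed either fold. The median RNA change at release ran from 1.09 to 1.38 over its 7 alternatives. The count of members past the fold at release was 13 at 3-fold (226 of all 5590 genes) and 58 at 1.5-fold (963). The late RNA difference and its alternatives were chosen after the data were seen. Scaling by upper quartiles gave a late difference of -0.40 (0.09 over all genes) and 11 members (307 of all genes). Its leave-one-out time points gave -0.62 to -0.58.

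The RNA differences between S phase and other time points were near 0 and changed with the setting. In the first cycle (0.08) scaling by upper quartiles gave -0.0050, the arrest among the other time points gave 0.37, and leave-one-out time points gave 0.049 to 0.089. In the second (-0.01), the scaling gave -0.0066, adding 130 min gave 0.061, and leaving out a time point gave -0.075 to 0.096. As raw entropy, on another scale, the S phase rises were 0.090 and 0.064, and leaving out a time point gave 1.08 (without the arrest) to 1.99 in the first cycle and 1.01 to 1.32 in the second. The promoter ratio (-0.03) was -0.10 at 50 and 60 min, -0.067 over 10 to 140 min and -0.084 without the subtraction. Without the arrest, the correlation of RNA with entropy was 0.34 and with the promoter score 0.14, and that with the nucleosome score was -0.57. The cause of these shifts was not tested. The depth behind each value is not known.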
